A study of Mus musculus with 6 samples.

Results

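The exon junction complex core and disassembly genes are 6 of the 55378 genes in the count table: Eif4a3, Rbm8a, Magoh, Magohb, Casc3 and Pym1. They were taken by name, and all 6 were found and passed the filter on low counts. The libraries came from mouse embryos whose zygotes had been microinjected with small interfering RNA (siRNA). Collection was on day 5, at the blastocyst stage according to the series' design text. One group received an siRNA against Eif4a3 (Eif4a3-KD, 3 libraries) and the other a negative control siRNA (NC, 3 libraries). Each library was a pool of 5 embryos, amplified from polyadenylated RNA by Smart-seq2, a full-length cDNA method for very small samples, and sequenced as read pairs. No strain, parent or culture batch is given, and nothing says that pools of a group came from separate parents, so the p-values measure only the spread between these samples. Both groups went through microinjection, and no uninjected embryos were used here.

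The exon junction complex is a protein clamp that spliceosomes leave on mRNA just upstream of each junction between exons. The RNA helicase EIF4A3 grips the RNA, the heterodimer of MAGOH (or its close copy MAGOHB) and RBM8A, also called Y14, locks that grip, and CASC3 joins the clamp in the cytoplasm. PYM1 binds ribosomes and the MAGOH-RBM8A pair and helps to take the complex apart during translation. A complex that stays on the RNA downstream of a stop codon is a signal for nonsense-mediated decay, the pathway that removes mRNAs with early stop codons.

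Of the 6 genes, Eif4a3 alone passed the test, with less RNA in the knockdown. At the gene level 0 members were higher, 1 was lower and 5 did not pass, where 13.1% of the 15619 genes tested were called in either direction, 7.52% higher and 5.56% lower (edgeR quasi-likelihood test, Benjamini-Hochberg adjusted p under 0.05). The groups did not overlap for Eif4a3 alone among the 6, and they did not overlap for 36.4% of all genes tested. The other 5 members had log2 fold changes between −0.48 and 0.57, with a median of 0.28 beside 0.03 over all genes tested. Block-summed counts per library were 16157715 to 18697761 in the knockdown and 15607226 to 18389991 in NC.

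Eif4a3 (ENSMUSG00000025580, chr11:119288363-119300089, minus strand, GRCm38) encodes the helicase of the complex and is the gene that the siRNA was made against. It measured 16.03, 36.2 and 56.2 CPM, counts scaled to the effective library size, in the knockdown libraries, against 302, 255 and 202 CPM in NC. Every knockdown library was far under every NC library, and the knockdown libraries spread more widely in proportion. The mean was 36.1 ± 20.1 CPM in the knockdown and 253 ± 49.96 CPM in NC (SD, n = 3 each), with a log2 fold change of −2.81 (standard error 0.44, 95% interval −3.79 to −1.83, edgeR adjusted p 0.00513). The exact permutation p was 0.1, the smallest that 3 libraries against 3 allow. In pools of whole embryos, fewer cells that express a gene and less RNA of it per cell cannot be told apart.

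**Figure D1:**
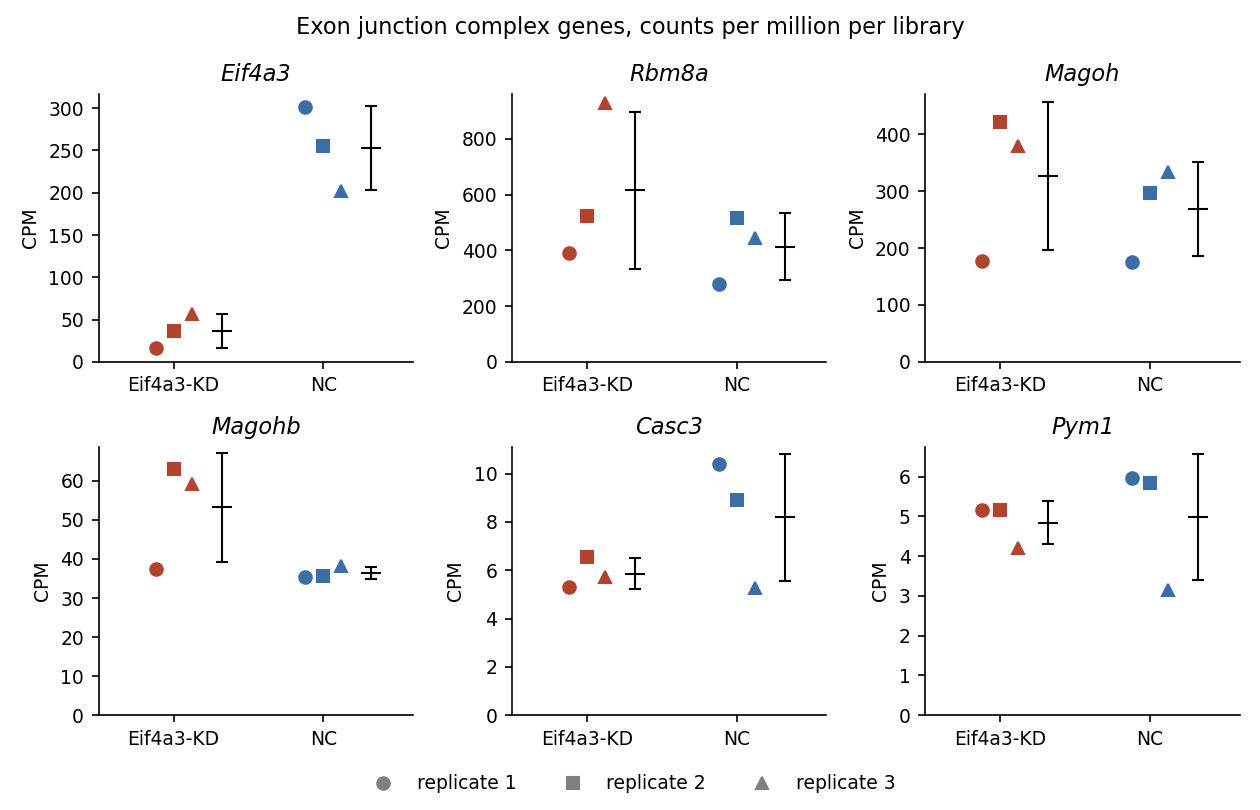
CPM of the 6 genes in each library, Eif4a3-KD left and NC right, with the marker shape giving the replicate number and the black bar the mean ± SD of 3 libraries. The groups are apart for Eif4a3 (16.03 to 56.2 CPM in the knockdown, 202 to 302 CPM in NC) and overlap for the other 5 genes.

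What remained of Eif4a3 was uneven along the transcript, with a step between exon 8 and exon 9 of its main annotated transcript, which has 12 exons. Overlapping exon lines of the gene merge into 11 blocks, of which the 8 nearest the 5′ end are exons 1 to 8, and block 10 holds exons 10 and 11. Exon 8 (chr11:119293559-119293697) and exon 9 (chr11:119292819-119292934), both coding, are shown because the step lies at their junction. The capitals are the last 10 bases of exon 8 and the first 10 of exon 9, 5′ to 3′ on the minus strand, from the GENCODE vM21 transcript on GRCm38.
Eif4a3 exon 8: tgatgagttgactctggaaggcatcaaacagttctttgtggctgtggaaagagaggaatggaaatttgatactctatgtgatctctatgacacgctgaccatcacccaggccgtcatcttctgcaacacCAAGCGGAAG
Eif4a3 exon 9: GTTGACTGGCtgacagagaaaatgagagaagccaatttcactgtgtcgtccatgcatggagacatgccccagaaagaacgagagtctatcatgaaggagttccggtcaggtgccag

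Upstream of that junction little signal was left in any knockdown library. The 8 blocks at the 5′ end summed to 7.50, 4.30 and 8.19 CPM in the knockdown, against 211, 150 and 126 CPM in NC. This left 4.62%, 2.65% and 5.04% of the NC mean in knockdown replicates 1, 2 and 3. Downstream of it the knockdown libraries parted from each other. The 3 blocks at the 3′ end summed to 8.53, 31.9 and 48.0 CPM in the knockdown, against 90.8, 105 and 75.9 CPM in NC, which left 9.42%, 35.2% and 53.02% of the NC mean. Knockdown replicate 1 was low over the whole transcript, and replicates 2 and 3 were low mainly in its 5′ part.

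At the step itself, block 9 held 59, 139 and 221 counts in the knockdown libraries, against 685, 536 and 399 in NC, and block 8 just upstream held 31, 12 and 26 in the knockdown against 806, 484 and 411 in NC. The ratio of block 9 to block 8 was 1.90, 11.6 and 8.50 in the knockdown and 0.850, 1.11 and 0.971 in NC. The ratio one junction earlier, block 8 to block 7, was 0.886, 1 and 1 in the knockdown and 0.983, 1.06 and 1.15 in NC, with groups that overlapped. One junction later, block 10 to block 9 was 1.34, 1.76 and 1.61 in the knockdown and 1.14, 1.31 and 1.25 in NC. Here too the groups were apart (exact permutation p 0.1), by a far smaller margin. Block 9 also contains an annotated longer form that reaches into the following intron, and 0 pairs lay there outside the coding exon in all 6 libraries. The pairs that make the step therefore touched the coding exon 9 itself.

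**Figure D2:**
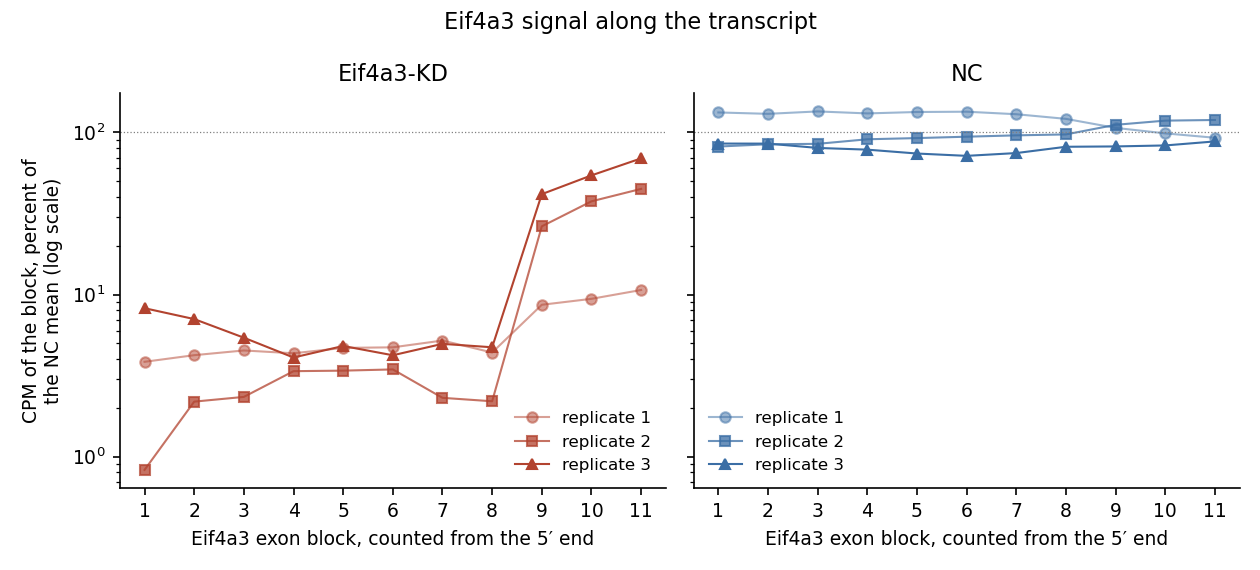
Eif4a3 CPM in each of the 11 exon blocks, as percent of the NC mean of that block on a log axis, one line per library, Eif4a3-KD in the left panel and NC in the right. Blocks 1 to 8 lie between 0.830% and 8.24% in the knockdown, and from block 9 on replicates 2 and 3 lie at 26.4% or more while replicate 1 stays at 8.65% to 10.7%.

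Per block, 9 of the 11 Eif4a3 blocks were lower, where 5.49% of the 72279 blocks tested were lower and 5.60% higher. The 8 blocks at the 5′ end had log2 fold changes from −4.71 to −4.46, with edgeR adjusted p at most 0.00148. Block 9 was also lower (−1.97, adjusted p 0.0196), while block 10 had −1.57 (adjusted p 0.0589) and block 11 had −1.27 (adjusted p 0.123). The count of lower member blocks was 8 to 10 with 1 library left out and 11 with the replicate number as a block. The share of Eif4a3 counts in the last 3 blocks was 53.2%, 88.1% and 85.4% in the knockdown, against 30.1%, 41.2% and 37.6% in NC. The groups did not overlap, and the exact permutation p was 0.1. In edgeR's exon usage test, which compares each block with its own gene, the count for Eif4a3 was 0 of 11, where 0.165% of 67890 blocks passed, 0.125% higher and 0.0398% lower. Its lowest adjusted p was 0.117, and 10 of its blocks had an unadjusted p under 0.05. Those 10 are not separate results, since each block is compared with the same gene. Without knockdown replicate 1, blocks 4 to 8 passed that test, with adjusted p from 0.00773 to 0.0431.

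Rbm8a (ENSMUSG00000038374, chr3:96629933-96633791, plus strand) encodes the subunit Y14 that pairs with MAGOH. It measured 392, 524 and 930 CPM in the knockdown, against 280, 517 and 443 CPM in NC. The groups overlapped, and knockdown replicate 3 alone stood above the rest. The log2 fold change was 0.57 (standard error 0.38, 95% interval −0.27 to 1.42, adjusted p 0.344). Its 4 blocks had log2 fold changes from 0.52 to 0.64, and none passed. The share of counts in the last 3 blocks was 85.8% ± 0.450 in the knockdown and 86.2% ± 0.581 in NC (SD, n = 3 each), with groups that overlapped. Rbm8a2, a copy in 1 exon on chromosome 1, is 97.9% identical to Rbm8a over the coding sequence with an unbroken run of 116 shared bases, so pairs from the copies can be uncertain. It held 49, 40 and 42 counts in the knockdown and 16, 21 and 20 in NC, few beside the 5633 to 15454 of Rbm8a (log2 fold change 1.05, adjusted p 0.214).

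Inside Rbm8a, a short stretch just past the usual end of exon 1 was called higher although the gene was not. The annotated protein-coding transcript Rbm8a-203 ends exon 1 after 37 further bases (chr3:96630029-96630065), past the end at 96630028 that other transcripts use, and begins exon 2 with 4 bases fewer. Over both exons the net gain is 33 bases, a multiple of 3. The coding part of the long exon is shown with those 37 bases in capitals (chr3:96629962-96630065, plus strand, GRCm38, GENCODE vM21).
Rbm8a exon 1, long form: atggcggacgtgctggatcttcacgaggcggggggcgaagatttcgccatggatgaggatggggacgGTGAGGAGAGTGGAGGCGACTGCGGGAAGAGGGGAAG

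Pairs that touched these 37 bases and no part of the shorter exon numbered 40, 29 and 42 in the knockdown, against 4, 5 and 5 in NC. The groups were wide apart. In CPM the means were 2.05 ± 0.415 in the knockdown and 0.286 ± 0.0757 in NC (SD, n = 3 each). The log2 fold change was 2.83 (standard error 0.52, adjusted p 0.00359), and with 1 library left out it ranged from 2.61 to 2.95, with adjusted p from 0.00390 to 0.0215. At NC counts of 4 to 5 the stretch entered the test by its knockdown counts, so no other direction was open to it. These pairs came to 4.44%, 3.30% and 2.50% of the counts of the shorter exon in the knockdown and to 0.684%, 0.605% and 0.656% in NC. An annotated exon that runs on through the intron (chr3:96629973-96630361) contains the same 37 bases, and pairs that touch both parts are left out. The counts can therefore hold pairs of intron-retaining or unspliced RNA, and measure neither the long form alone nor the use of its splice site.

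At the other end of the gene, pairs found only in the distal part of the last exon (chr3:96631901-96633791) numbered 20, 10 and 13 in the knockdown, against 63, 32 and 28 in NC. The groups did not overlap, and this part was lower by edgeR, with a log2 fold change of −1.60 ± 0.45 (standard error, adjusted p 0.0331). The call was lost without knockdown replicates 2 (adjusted p 0.0819) or 3 (0.0892) and without NC replicates 1 (0.150), 2 (0.0869) or 3 (0.0547). A wider stretch that contains it (chr3:96631569-96633791) held 126, 83 and 142 such pairs in the knockdown and 159, 118 and 120 in NC, with groups that overlapped (log2 fold change −0.28, adjusted p 0.616). These tests cover every pair of nested exon lines that share an end, were added after the values were seen, and are adjusted over all 17010 such extensions, of which 4.66% were higher and 6.88% lower. The members have 39 of them, of which 8 were tested, 1 was higher (Rbm8a) and 3 were lower (1 in Rbm8a and 2 in Eif4a3).

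**Figure D3:**
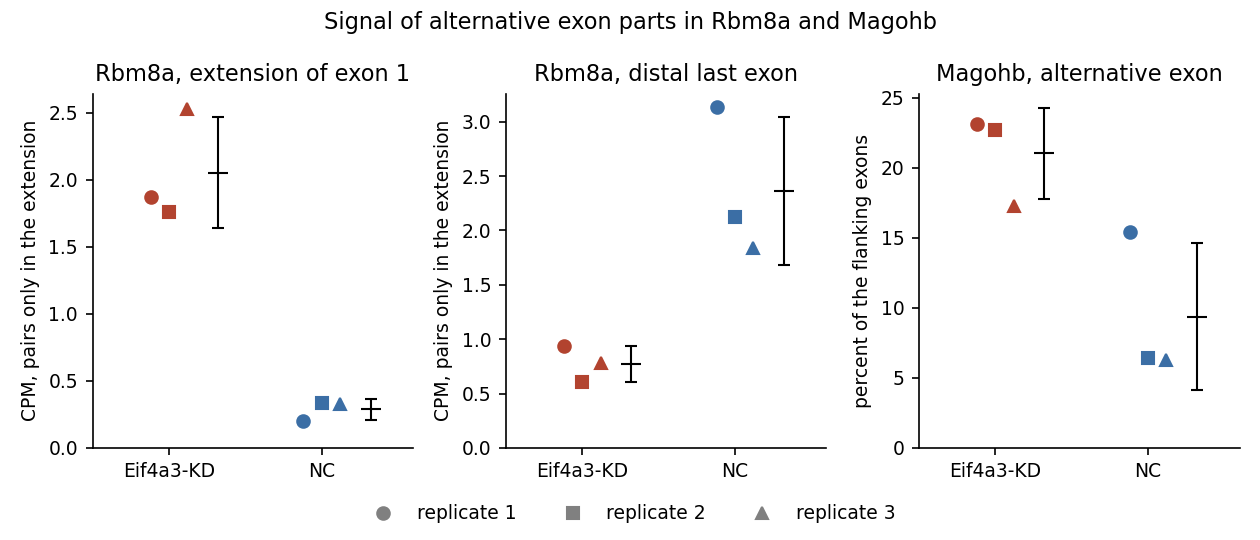
Signal of alternative parts of Rbm8a and Magohb in each library, Eif4a3-KD left and NC right, black bars giving mean ± SD of 3 libraries: CPM of pairs only in the exon 1 extension and only in the distal last exon of Rbm8a, and the Magohb alternative exon as percent of its flanking exons. The exon 1 extension averages 2.05 CPM in the knockdown and 0.286 CPM in NC, the distal part 0.775 CPM in the knockdown and 2.37 CPM in NC, and the Magohb exon 21.0% in the knockdown and 9.37% in NC.

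Magoh (ENSMUSG00000028609, chr4:107879755-107887424, plus strand) and Magohb (ENSMUSG00000030188, chr6:131284388-131293244, minus strand) encode nearly the same partner of Y14. Their coding sequences of 438 and 444 bases are 81.3% identical outside a gap of 6 bases, and the longest run of identical bases in the transcripts is 17, far shorter than a read. Exon 3 of both (chr4:107883068-107883178 and chr6:131288036-131288146, 111 bases each) is shown to let the copies be told apart, with the 21 bases that differ in capitals (GENCODE vM21, GRCm38).
Magoh exon 3: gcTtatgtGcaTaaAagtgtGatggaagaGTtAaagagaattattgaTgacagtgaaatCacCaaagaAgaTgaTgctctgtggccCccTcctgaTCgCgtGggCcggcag
Magohb exon 3: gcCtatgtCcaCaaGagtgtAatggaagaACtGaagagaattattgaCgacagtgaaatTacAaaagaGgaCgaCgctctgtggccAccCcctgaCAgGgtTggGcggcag

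Magoh measured 178, 422 and 380 CPM in the knockdown, against 176, 297 and 334 CPM in NC. Replicate 1 of each group was the low library, and the groups overlapped. The log2 fold change was 0.28 (standard error 0.38, 95% interval −0.57 to 1.13, adjusted p 0.664), and its 5 blocks lay within 0.27 to 0.30. Magohb, the lesser copy, measured 37.3, 63.1 and 59.3 CPM in the knockdown, against 35.4, 35.6 and 38.2 CPM in NC. Knockdown replicates 2 and 3 were above all NC libraries and replicate 1 was inside the NC range. Its log2 fold change was 0.55 (standard error 0.30, 95% interval −0.11 to 1.21, adjusted p 0.244).

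Magohb made up 8.60%, 6.27% and 6.53% of the Magoh and Magohb level per kilobase of exon in the knockdown, and 8.25%, 5.10% and 4.86% in NC. The shares overlapped (exact permutation p 0.5). From the most counted block of each gene they were 25.01%, 21.2% and 20.2% in the knockdown and 26.03%, 17.3% and 16.3% in NC, so the level of the share depends on the measure while the overlap of the groups does not. The share of counts in the last 3 blocks was 62.0% ± 0.694 in the knockdown and 61.9% ± 0.536 in NC for Magoh, and 62.6% ± 2.47 in the knockdown and 63.5% ± 1.43 in NC for Magohb (SD, n = 3 each). For both copies these shares overlapped between the groups.

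Magohb has an alternative second exon of 200 bases (chr6:131291741-131291940) that, with these ends, the GENCODE vM21 annotation places only in transcripts it labels as targets of nonsense-mediated decay. A longer form (chr6:131291741-131292260) starts a transcript labelled protein-coding. The exon is shown from its start to the stop codon that ends the reading frame there, in capitals (chr6:131291888-131291940, minus strand, GENCODE vM21, GRCm38).
Magohb alternative exon: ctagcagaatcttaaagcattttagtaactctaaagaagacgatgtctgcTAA

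The exon held 31, 37 and 31 counts in the knockdown, against 19, 6 and 6 in NC. The line of the longer form held 31, 37 and 31 in the knockdown and 24, 6 and 10 in NC, so pairs outside the 200 bases were seen in NC replicates 1 and 3 alone. As a share of the mean of the exons on either side it came to 23.1%, 22.7% and 17.3% in the knockdown, against 15.4%, 6.42% and 6.25% in NC. These shares did not overlap between the groups, but over the first exon alone they did, since NC replicate 1 reached 18.8% there and knockdown replicate 3 was at 17.6%. The block that holds it had a log2 fold change of 1.27 (edgeR adjusted p 0.143) and did not pass the usage test. With 6 counts in NC replicate 2 the block needed its knockdown counts to enter the test, so its sign was not wholly free. The exon lies wholly inside Gm44958, a processed pseudogene annotated on the same strand (chr6:131291603-131292338), whose own line held 31, 37 and 31 counts in the knockdown and 24, 6 and 11 in NC. At most 1 pair per library of that line lay outside the Magohb lines, so the counts cannot be assigned to either gene, nor to the short or the longer form. This exon was chosen after its values were seen and its shares have no test.

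Casc3 (ENSMUSG00000078676, chr11:98804905-98833814, plus strand), the cytoplasmic shell protein also known as MLN51 or Barentsz, was near the low end of what could be tested. It measured 5.29, 6.54 and 5.72 CPM in the knockdown, against 10.4, 8.90 and 5.25 CPM in NC. NC replicate 3 was under all knockdown libraries, so the groups overlapped, and the log2 fold change was −0.48 (standard error 0.40, 95% interval −1.38 to 0.41, adjusted p 0.455). Only the first and last of its 15 blocks passed the filter for blocks.

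The first and the last block of Casc3 had log2 fold changes of opposite sign. The first block (chr11:98804905-98804986) held 15, 25 and 21 counts in the knockdown, against 2, 10 and 4 in NC, while the last block held 40, 74 and 47 in the knockdown, against 66, 84 and 59 in NC. The groups did not overlap in the first block but overlapped in the last. The first had a log2 fold change of 1.78 (adjusted p 0.121) and the last −0.47 (adjusted p 0.498). At its NC counts the first block entered the test by its knockdown counts. Its sign was therefore not free and cannot be set against that of the last block. Exons of Msl1 on the same strand overlap 15 bases of Casc3, and Gm12359 on the opposite strand overlaps 11.5% of its exon bases. The protocol does not mark strand, so part of the counts could belong to these neighbours. The 13 middle blocks together held 58, 9 and 27 counts in the knockdown and 141, 40 and 17 in NC.

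Pym1 (ENSMUSG00000064030, chr10:128747889-128766564, plus strand), the disassembly factor, measured 5.15, 5.15 and 4.21 CPM in the knockdown, against 5.97, 5.84 and 3.15 CPM in NC. All knockdown libraries lay inside the NC range. The log2 fold change was −0.04 (standard error 0.43, edgeR adjusted p 0.957), at 48 to 120 counts per library. Its 95% interval of −1.01 to 0.92 does not exclude changes of nearly 1 log2 unit either way. Its share of counts in the last 3 blocks was 82.7%, 87.1% and 82.9% in the knockdown, against 75.8%, 75.0% and 81.3% in NC. The groups did not overlap (exact permutation p 0.1), and the difference was 6.85 percentage points, or 2.46 points with the last 4 blocks.

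Across the 47 blocks of the 6 genes, 31 passed the filter, 9 were lower and 0 higher, and all 9 were Eif4a3 blocks. Of the 36 blocks of the other 5 genes 20 were tested and 0 called by edgeR, 1 of them with an unadjusted usage p under 0.05, the first block of Casc3. That block entered the test by its knockdown counts, and 1 of 20 is the share that a threshold of 0.05 passes by itself.

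Per kilobase of merged exon, the levels of the core subunits differed widely within each group. Mean levels in the knockdown were 424 ± 170 CPM per kilobase for Magoh, 191 ± 87.3 for Rbm8a, 30.9 ± 8.07 for Magohb, 17.03 ± 9.47 for Eif4a3, 3.65 ± 0.409 for Pym1 and 1.36 ± 0.147 for Casc3. In NC they were 349 ± 107 for Magoh, 129 ± 37.7 for Rbm8a, 119 ± 23.5 for Eif4a3, 21.2 ± 0.914 for Magohb, 3.76 ± 1.20 for Pym1 and 1.90 ± 0.615 for Casc3 (SD, n = 3 each). Rbm8a and Eif4a3 lay within each other's spread in NC. Eif4a3 was next after Magohb in the knockdown and below it in each knockdown library (7.55 against 21.7, 17.04 against 36.7 and 26.5 against 34.5). Magoh was above Rbm8a in every library of both groups. In the knockdown Magoh had 231, 548 and 494 CPM per kilobase, against 122, 163 and 289 for Rbm8a in the same libraries. Pym1 was likewise above Casc3 in every library of both groups. In NC Pym1 had 4.50, 4.41 and 2.38, against 2.42, 2.07 and 1.22 for Casc3. Pairs across a junction count in more than 1 block, and rarely used exons add length without counts, so the order depends on the measure. From the most counted block of each gene, mean levels in the knockdown were 423 CPM per kilobase for Magoh, 116 for Magohb, 80.4 for Rbm8a, 31.9 for Eif4a3, 3.51 for Pym1 and 1.97 for Casc3. In NC they were 343 for Magoh, 94.3 for Eif4a3, 80.6 for Magohb, 56.05 for Rbm8a, 3.28 for Pym1 and 2.73 for Casc3. On that measure Magohb was above Rbm8a in the mean of both groups, and Magoh was again above Rbm8a in every library.

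Levels per length were also set against that of Rbm8a, library by library. The log2 ratio of Eif4a3 to Rbm8a was −4.01, −3.26 and −3.45 in the knockdown, against 0.71, −0.42 and −0.53 in NC. The groups did not overlap (difference −3.49, exact permutation p 0.1, adjusted p 0.5 over 5 ratios). The log2 ratio of the summed Magoh and Magohb to Rbm8a was 1.05, 1.84 and 0.87 in the knockdown and 1.52, 1.34 and 1.73 in NC, with groups that overlapped (exact permutation p 0.5). The ratios of Casc3 (difference −0.96, exact p 0.3) and of Pym1 (difference −0.52, exact p 0.5) to Rbm8a overlapped as well. With the most counted block the Casc3 ratio did not overlap (difference −0.99, exact p 0.1).

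The eIF4A paralogs are the translation initiation helicases most like EIF4A3. Eif4a2 measured 396, 372 and 370 CPM in the knockdown, against 171, 207 and 214 CPM in NC. The groups were apart and it was higher (log2 fold change 0.94, standard error 0.26, adjusted p 0.0409), but with any 1 library left out the adjusted p was 0.0567 to 0.137. Eif4a1 measured 905, 768 and 796 CPM in the knockdown, against 1028, 854 and 1207 CPM in NC, with groups that overlapped (−0.32, adjusted p 0.479).

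Of the 25 genes that load the complex, join its periphery or act with it in export and decay, all were tested, with 0 higher and 0 lower by edgeR and 6 at an unadjusted p under 0.05. That is 24% of them, beside 30.1% of all genes tested. Their median log2 fold change was −0.15, beside 0.03 over all genes tested. By DESeq2, 1 of them was higher (Cwc27) and 1 lower (Ncbp1), where 1829 of the same 15619 genes were higher and 1490 lower. Ncbp1, the large subunit of the nuclear cap-binding complex, measured 66.5, 74.7 and 61.9 CPM in the knockdown and 139, 115 and 96.6 CPM in NC (−0.79, edgeR adjusted p 0.0803). Cwc27, a spliceosomal partner of CWC22, which brings EIF4A3 to the spliceosome, measured 69.6, 72.8 and 61.3 CPM in the knockdown and 38.2, 41.3 and 41.01 CPM in NC (0.76, edgeR adjusted p 0.0815). Neither pair of groups overlapped, which held for 7 of the 25 genes and for 36.4% of all genes tested.

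Of the decay factors, Upf1 and Smg1 had the smallest p. Upf1, the helicase of nonsense-mediated decay, measured 1.69, 0.666 and 1.75 CPM in the knockdown and 5.52, 6.24 and 1.64 CPM in NC. NC replicate 3 lay inside the knockdown range (−1.70, adjusted p 0.103). Its counts were 11 to 111 per library, and the most counted block alone gave −0.83 (edgeR adjusted p 0.338). Smg1, the kinase that phosphorylates UPF1, measured 8.86, 20.6 and 15.4 CPM in the knockdown and 28.6, 30.2 and 27.95 CPM in NC, without overlap (−0.95, adjusted p 0.105). The decay factor with the next smallest p, Upf3b, went the other way (1.01, edgeR adjusted p 0.126). It measured 27.1, 33.1 and 58.7 CPM in the knockdown and 12.6, 28.1 and 18.6 CPM in NC, with groups that overlapped.

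**Figure D4:**
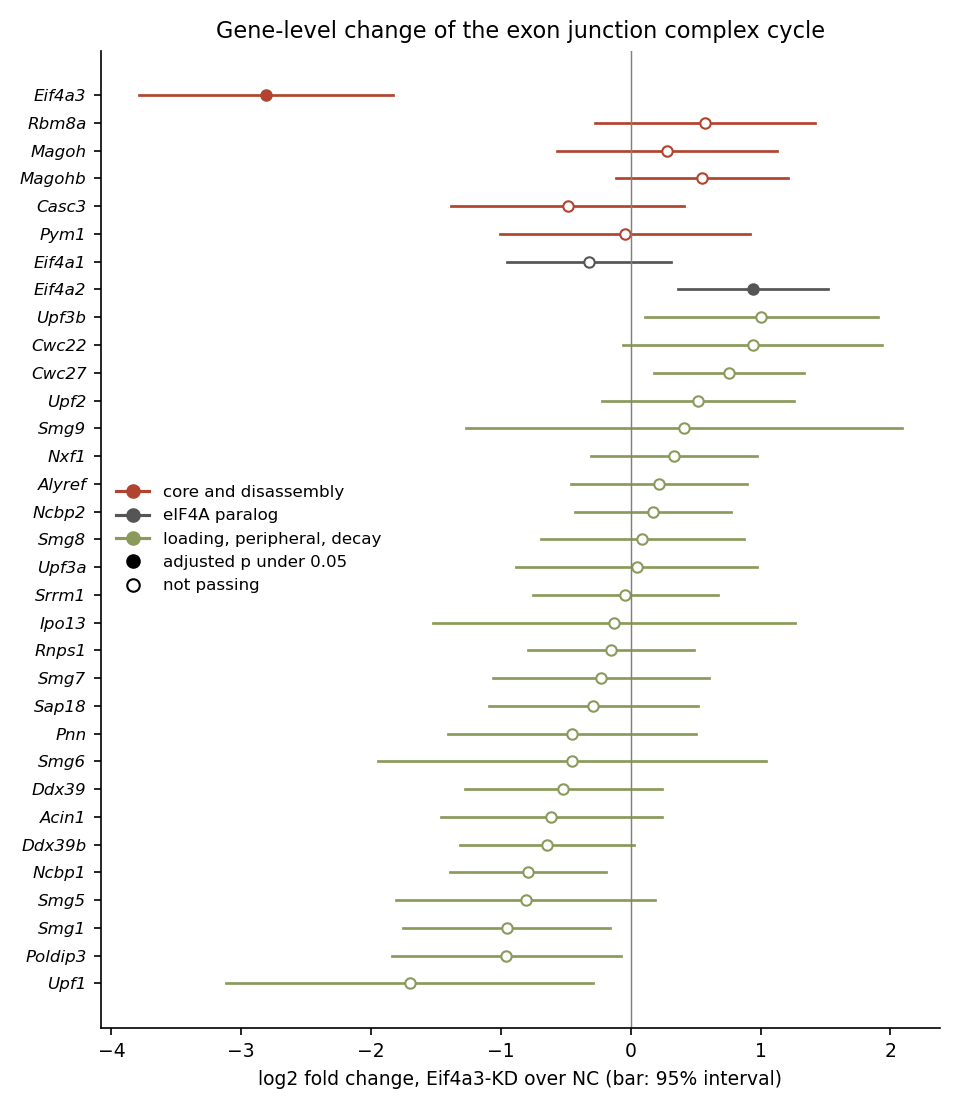
Log2 fold change of the Eif4a3-KD group over NC with its 95% interval for the 6 genes, the eIF4A paralogs and the 25 loading, peripheral and decay genes, each group in its own colour. Filled points passed an adjusted p of 0.05, which Eif4a3 (−2.81) and Eif4a2 (0.94) did, and open points did not.

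The genes whose profile over the 6 libraries was most like that of Eif4a3 were sought among 6785 tested genes with a mean of at least 10 CPM, by the root mean square difference in log2 CPM centred on the NC mean. They were Glipr2 (0.32), Cct6b (0.35), Huwe1 (0.36), Pik3r6 (0.41) and Lrp2 (0.45). Huwe1, a ubiquitin ligase, measured 10.7, 40.5 and 32.7 CPM in the knockdown, against 171, 156 and 149 CPM in NC. Like Eif4a3 it was at its lowest in knockdown replicate 1, which largely follows from its choice by likeness over the same libraries. The partners of the helicase were far from it in this order, with Magoh at rank 4289, Magohb at 5078 and Rbm8a at 5173. This distance largely follows the fold change, so the ranks mostly restate that these genes were not lowered. Casc3 (1.86) and Pym1 (2.19) were closer than Magoh (2.32), but had a mean under 10 CPM and no rank.

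Other markers moved with the groups, and their part in these values was not tested. Between libraries Pearson's correlation of log2 CPM across genes was 0.914 to 0.934 within the knockdown, 0.931 to 0.959 within NC and 0.801 to 0.870 between groups. Of 13 genes of the 2-cell stage 13 were higher, with a summed level of 116 to 339 CPM in the knockdown and 0.525 to 0.845 CPM in NC, where Usp17le, Zscan4b and Zscan4e were at 0. At such NC levels these genes entered the test by their knockdown counts, so no other direction was open to the list, and many of its genes are near-identical copies. Over all genes tested 7.52% were higher and 5.56% lower. Of 6 trophectoderm markers 3 were lower, with summed levels that overlapped between the groups (479 to 2128 CPM in the knockdown, 2103 to 5546 CPM in NC). Of the 4 epiblast and inner cell mass markers 1 was lower (141 to 171 CPM in the knockdown, 235 to 295 CPM in NC), as was 1 of the 3 tested of 4 primitive endoderm markers (54.2 to 71.4 CPM in the knockdown, 75.9 to 84.7 CPM in NC). Markers of the blastocyst lineages were thus present in both groups. Few markers of other cells could be tested: 2 of 7 for oocytes, 1 of 5 for cumulus, 0 of 3 for sperm and 3 of 4 for fibroblasts, and 0 of these were called by edgeR. The summed cumulus level was 16.1 to 28.8 CPM in the knockdown and 3.58 to 15.4 CPM in NC, with a log2 fold change of 1.15 in the tested gene and Has2, Ptx3 and Fshr at 0 in all libraries. The summed oocyte level was 2.62 to 11.3 CPM in the knockdown and 2.98 to 9.50 CPM in NC. Of the globin genes 2 of 4 were lower (3.42 to 6.14 CPM in the knockdown, 7.02 to 48.5 CPM in NC).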

How the data were processed

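Per the submitters' processing notes, the authors trimmed reads with fastp 0.20.1, aligned them with STAR 2.7.6a to GRCm38 and counted them with featureCounts 2.0.1. Per the file headers, the deposited values are raw counts of read pairs per GENCODE vM29 exon line moved to GRCm38 coordinates, each pair counting in every line it overlapped, with strand setting 2. Smart-seq2 does not mark strand, so pairs of the other orientation are missing. Of 842173 lines 449500 were distinct. Overlapping exons of a gene formed 291424 blocks, each block took its highest line, and blocks were summed per gene, so a pair across a junction counts more than once. Symbols were matched for 55102 of 55378 genes, and Ddx39a is listed as Ddx39.

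CPM uses effective library sizes (TMM). Genes, blocks, exon usage and nested exon extensions were tested with edgeR 4.0.16 (filterByExpr, quasi-likelihood, two-sided, no block, all 6 libraries) in R 4.3.3, adjusted by Benjamini-Hochberg over all features of each kind with a threshold of 0.05. DESeq2 1.42.0, no filter, a 5 CPM filter, summed lines, the most counted block, a replicate block and leaving out each library were alternatives. Single values had exact two-sided permutation tests. The scripts were checked on simulated data. Printed sequences come from GENCODE vM21 transcripts on GRCm38. Named genes are all members, both paralogs, the 4 partner genes with the smallest p, Upf3b as the next of them, and the 5 genes most like Eif4a3. The members, lists and tests were chosen with earlier results of these data known.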

Additional observations from a re-analysis of the deposited data

How the results depend on the processing

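Eif4a3 was called lower under all 13 alternatives, with log2 fold changes from −3.29 to −1.52 and adjusted p up to 0.0404, the weakest with the most counted block only, which lies in its 3′ part. Rbm8a, Magoh, Magohb and Casc3 kept their direction and did not pass under any. Pym1 changed sign around 0 and never passed: 0.019 with the 5 CPM filter, 0.0026 with all lines summed, 0.17 with the most counted block, 0.0029 with the replicate block and −0.31 to 0.10 with 1 library left out. The log2 ratio of Eif4a3 to Rbm8a differed by −2.35 with the most counted block. Of the 25 partner genes 2 were higher with the most counted block, where Cwc27 had 1.20 (adjusted p 0.0456). DESeq2 gave 1 higher and 1 lower, and 0 to 1 were lower with 1 library left out. Member blocks with changed usage numbered 0 to 5 with 1 library left out. Over all genes, 1174 were higher and 869 lower. These counts were 2089 and 1518 without a filter, 1829 and 1490 with DESeq2, and 550 to 1223 and 336 to 1131 with 1 library left out. With the replicate number as a block they were 1332 and 1198. The labels do not say whether the replicate numbers pair the libraries, and 3 libraries per group cannot decide it. After group means were removed, same-numbered libraries correlated at 0.245, 0.002 and 0.093. The closest match of replicate 1 was its own number (0.245), while that of NC replicate 2 was knockdown replicate 3 (0.168). With the replicate number as a block Eif4a3 had −2.95 (adjusted p 0.0088). Counts of at most 209 per library limit Casc3, Pym1, Upf1 and the exon parts.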
